A study of Mus musculus with 18 samples.

Results

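Milk in the mouse is built around the caseins and a small set of whey proteins, and the genes measured here are 8 of them: the caseins Csn1s1, Csn1s2a, Csn1s2b, Csn2 and Csn3, and Wap, Lalba and Glycam1. They were picked by symbol, as 8 of the 55450 genes with an expected count in each of 18 samples. Csn1s1 brought the group in because it lay among the genes that were most reduced in tumors with the T121 transgene relative to tumors without it. Values of the 8 genes in those contrasts are therefore given as a description with no test.

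RNA from 15 mammary tumors and 3 normal mammary glands was sequenced, each from a different female mouse of strain C57Bl/6. B1/P/Rbf tumors (n = 5) arose in Brca1fl/fl/Trp53fl/fl/TgK18GT121Tg/+ mice, B1/P tumors (n = 5) in Brca1fl/fl/Trp53fl/fl mice and P/Rbf tumors (n = 5) in Trp53fl/fl/TgK18GT121Tg/+ mice, so the Trp53 deletion was common to all tumors. The glands (n = 3) were wild type. Floxed alleles and transgene were switched by an adenovirus carrying Cre under the CMV promoter, injected into the ducts of 1 gland, and T121, a fragment of the SV40 large T antigen that inhibits pRb, p107 and p130, was driven in epithelial cells by the keratin 18 promoter. The study gives the injected glands as virgin and the injected animals as adult. Age at collection and the reproductive state of the gland donors are not in the labels. Numbers that name tumors and glands are those of the mice.

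The samples held 27661173 to 37794889 expected counts in total, and TMM factors ranged from 0.952 to 1.11 in tumors and from 0.788 to 0.858 in glands. Values are counts scaled to the library total (CPM) after TMM scaling, and 3 counts, taken as the floor, correspond to 0.0754 to 0.117 CPM. The B1/P/Rbf tumors averaged 29.7 ± 8.97 CPM of Brca1 (SD, n = 5), those of B1/P 15.3 ± 8.78 CPM, those of P/Rbf 78.9 ± 32.7 CPM and the glands 5.45 ± 0.735 CPM (n = 3), while Trp53 averaged 14.7, 14.8, 10.8 and 61.4 CPM in the same order. On average, transcripts of Brca1 were lower in both groups with the floxed allele than in P/Rbf tumors, and above the glands. The summed level of 8 luminal epithelial keratins and junction genes ranged from 740 CPM in B1/P tumor 246361 to 13307 CPM in P/Rbf tumor 287842 and lay between 2263 and 2831 CPM in the glands.

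Caseins are secreted by alveolar luminal cells as micelles. The calcium-sensitive caseins Csn1s1, Csn1s2a, Csn1s2b and Csn2 form the body of the micelle and Csn3 (kappa-casein) stabilises its surface. Their transcription is switched on in pregnancy and lactation by prolactin, which acts through its receptor, JAK2 and STAT5, with glucocorticoid receptor, C/EBP-beta, NFI factors and ELF5 as partners. All 5 casein genes lie in 1 cluster on chromosome 5, which spans 266.5 kb from Csn1s1 (chr5:87666208-87682578, plus strand) to Csn3 (chr5:87925579-87932665, plus strand) on the build GRCm38.

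Promoter sequences of RefSeq (GRCm38.p6) were matched for 6 of the 8 genes, and Csn1s2b and Csn3 had no entry in the table used. In the 250 bases before the start, TTCNNNGAA, the core of the element that STAT dimers recognise, was found in 3 of the 6. It reads the same on both strands in its fixed letters, it was the only motif searched, and 7.18% of 27025 promoters held it in a window of the same length. Whole windows of Csn1s1 and Glycam1 are printed because Csn1s1 set B1/P tumors apart from all other samples and Glycam1 had the highest level in glands per length of transcript. For Csn2, 205 of the 250 bases, with the match among them, lie in an exon that GENCODE annotates for a longer Csn2 transcript, so only 29 bases around the match are shown, and they are promoter sequence only relative to the RefSeq start. Capitals mark the match.
Csn1s1, chr5:87665958-87666207, plus strand: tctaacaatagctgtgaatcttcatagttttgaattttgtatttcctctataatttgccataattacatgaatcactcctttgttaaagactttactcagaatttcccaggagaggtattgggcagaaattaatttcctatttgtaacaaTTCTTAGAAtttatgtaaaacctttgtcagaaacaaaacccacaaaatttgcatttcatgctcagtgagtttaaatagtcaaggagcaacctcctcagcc
Csn2, chr5:87699500-87699528, minus strand: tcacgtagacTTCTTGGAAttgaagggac
Glycam1, chr15:103565082-103565331, minus strand: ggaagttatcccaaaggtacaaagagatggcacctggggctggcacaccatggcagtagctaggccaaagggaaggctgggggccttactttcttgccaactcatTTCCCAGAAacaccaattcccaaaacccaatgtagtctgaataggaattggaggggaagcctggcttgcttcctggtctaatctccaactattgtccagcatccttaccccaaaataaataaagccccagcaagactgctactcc
The match began 100 bases before the start in Csn1s1, 93 bases before it in Csn2 and 145 bases before it in Glycam1. Csn1s2a, Wap and Lalba held these letters nowhere in their windows, which says nothing about binding of the factor. A match is a description of the sequence, and the series measured no binding.

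Csn1s1 encodes alpha-S1-casein, 1 of the most abundant proteins of milk. B1/P tumors 225068, 225070, 246361, 255232 and 248662 held 5.62, 1479, 4.5, 2.78 and 76.1 CPM (177, 49953, 179, 94 and 2416 counts). In B1/P/Rbf tumors the counts were 0, 0, 0, 0 and 2, and in P/Rbf tumors 1, 1, 0, 0 and 0. Glands 330154, 330155 and 330156 held 2, 8 and 8 counts, or 0.0781, 0.262 and 0.271 CPM. Every B1/P tumor thus stood above every other sample, and every tumor with T121 stood below the lowest gland in CPM. Gland 330154 and B1/P/Rbf tumor 210906 both held 2 counts, under the floor, so their order came from library size alone. In bulk RNA, fewer cells that make a transcript and less of it per cell cannot be told apart, which holds for all values here.

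Against B1/P tumors, whose mean was 314 ± 652 CPM (SD, n = 5) and median 5.62 CPM, the level of Csn1s1 was lower at least 3715-fold in B1/P/Rbf tumors and at least 3582-fold in P/Rbf tumors, both at the floor. The lowest B1/P tumor still held 42.8 times the level of the highest tumor with T121. A single tumor, 225070, carried 94.3% of the B1/P sum and was 19.4-fold above the next, 248662. The other 4 averaged 22.3 ± 35.9 CPM.

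Relative to the glands, Csn1s1 was higher in B1/P tumors by 10.54 on the log2 scale (SE 2.29, adjusted p = 0.0021 by edgeR's quasi-likelihood test), and the lowest tumor was 10.3-fold above the highest gland. Without tumor 225070 the log2 difference was 6.74 (SE 1.40, adjusted p = 0.00174). With limma-voom and quantile normalization it was 7.67 (adjusted p = 0.0716), which did not pass. Tumors of B1/P/Rbf and P/Rbf mice lay at least 2.41-fold and 2.32-fold below the glands with no overlap in CPM, and neither difference passed (adjusted p = 0.272 and 0.274). Both passed once tumor 225070 was left out of the shared fit (adjusted p = 0.0347 and 0.0351). The values of all 3 tumor groups had a part in the choice of Csn1s1, and the gene passed the filter on low counts through B1/P tumors alone, so the p-values of this paragraph support neither a rise nor a fall beyond the values themselves.

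Csn2 encodes beta-casein, lies next to Csn1s1 on the opposite strand (chr5:87692624-87699630), and took the same order of tumors at the top. Its levels in B1/P tumors 225068, 225070, 246361, 255232 and 248662 were 4.54, 76.8, 2.39, 3.69 and 25.4 CPM (143, 2595, 95, 125 and 805 counts). Counts were 1, 0, 0, 6 and 0 in B1/P/Rbf tumors and 0, 1, 2, 2 and 0 in P/Rbf tumors. Glands held 1, 7 and 3 counts (0.0391, 0.229 and 0.102 CPM). All 5 B1/P tumors stood above all other samples, while tumors with T121 overlapped the glands.

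The spread of Csn2 among B1/P tumors was narrower than that of Csn1s1, with a mean of 22.6 ± 31.8 CPM (SD, n = 5), and tumor 225070 held 68.1% of the sum and 3.03 times the level of 248662. The fitted log2 difference from B1/P tumors was -9.09 (SE 1.34) in B1/P/Rbf tumors, -7.77 without tumor 225070 and -11.02 without B1/P/Rbf tumor 209490, and P/Rbf tumors, at the floor, were at least 258-fold lower. That bound uses the mean of all 5 B1/P tumors, and the 4 other than 225070 averaged 9.0 ± 10.9 CPM. Against the glands, Csn2 was higher in B1/P tumors by 7.45 on the log2 scale (SE 1.56, adjusted p = 0.00155, edgeR), with the lowest tumor 10.4-fold above the highest gland. It was 6.13 (SE 1.37, adjusted p = 0.00288) without tumor 225070. Csn2 too was kept through B1/P tumors alone, so it could be called only as higher there. Neither group with T121 was called against the glands (adjusted p = 0.355 for B1/P/Rbf and 0.262 for P/Rbf). With at most 7 counts in any of these samples, the level was too low for a difference to be detectable.

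**Figure D1:**
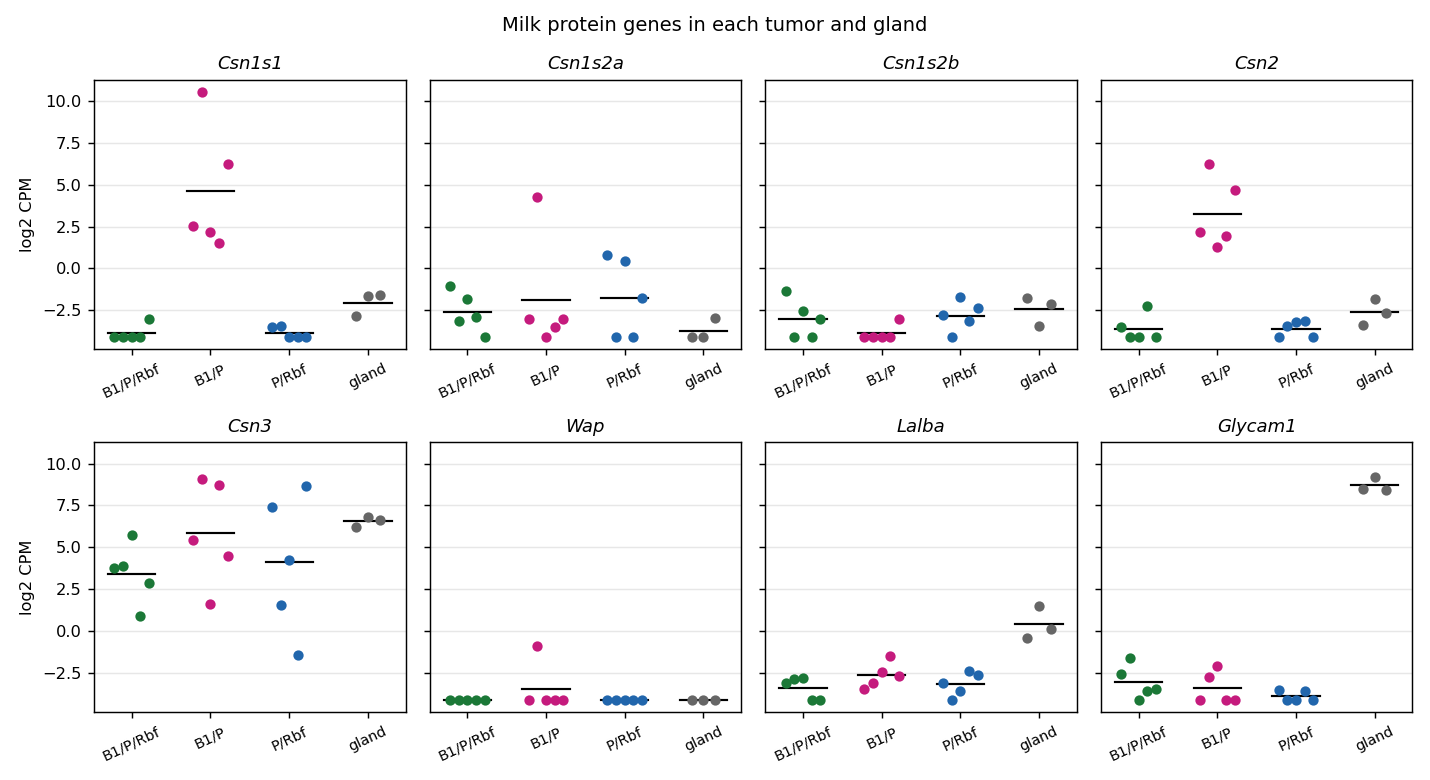
Levels of the 8 milk protein genes in each tumor and gland, as log2 CPM with a prior count of 2. Points are samples (5 in each tumor group, 3 glands), black lines are group means of the log2 values, and the lowest points are samples with 0 counts. All 5 B1/P tumors lie above all other samples for Csn1s1 and Csn2, the glands lie above all tumors for Lalba and Glycam1, and groups overlap for Csn3 except that the B1/P/Rbf tumors lie below the glands.

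Csn1s2a and Csn1s2b encode the alpha-S2-like caseins. Csn1s2a (chr5:87774567-87788797, plus strand) was detected mainly in tumor 225070, at 643 counts or 19.0 CPM, with 2, 0, 1 and 2 counts in the other B1/P tumors. B1/P/Rbf tumors held 15, 2, 8, 3 and 0 counts, P/Rbf tumors 59, 0, 51, 0 and 7, and glands 0, 0 and 2. Apart from tumor 225070, the higher values thus lay among tumors with T121, opposite to Csn1s1 and Csn2. The fitted log2 difference from B1/P tumors was -4.59 (SE 1.93) in B1/P/Rbf and -2.56 (SE 1.74) in P/Rbf tumors, and it turned to 1.94 (SE 1.48) and 3.97 (SE 1.52) without tumor 225070.

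No difference of Csn1s2a passed the edgeR test. Against the glands, which were at the floor, B1/P tumors were at least 36.3-fold higher on the mean (fitted log2 7.16, SE 2.91, adjusted p = 0.0665), a value that fell to 0.63 (adjusted p = 0.831) without tumor 225070, passed without tumor 246361 (adjusted p = 0.0478) and passed in DESeq2 (adjusted p = 0.00572). Csn1s2b (chr5:87808082-87824426, plus strand) stayed at or under 12 counts everywhere and was not kept for testing. It had 12, 0, 4, 0 and 2 counts in B1/P/Rbf tumors, 0, 0, 0, 0 and 2 in B1/P tumors, 3, 0, 10, 2 and 4 in P/Rbf tumors and 6, 1 and 5 in glands. Tumor 225070 held none, although it had the highest Csn1s1, Csn1s2a, Csn2 and Csn3 of all 15 tumors.

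Csn3 was the casein present in every sample, and its levels crossed genotypes. B1/P tumors 225068, 225070, 246361, 255232 and 248662 held 42.3, 532, 3.06, 427 and 22.3 CPM. P/Rbf tumors 287842, 287845, 290860, 287822 and 290845 held 170, 2.93, 18.9, 0.316 and 412 CPM. B1/P/Rbf tumors 208855, 208857, 208863, 209490 and 210906 held 13.6, 15.0, 52.4, 1.85 and 7.2 CPM. The glands were close together at 73.3, 114 and 98.2 CPM, above all 5 B1/P/Rbf tumors and within the range of the other tumor groups.

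Group means of Csn3 were 18.0 ± 20.0 CPM in B1/P/Rbf, 205 ± 253 CPM in B1/P and 120.8 ± 177 CPM in P/Rbf tumors (SD, n = 5 each) and 95.2 ± 20.5 CPM in glands (n = 3). The medians were 13.6, 42.3, 18.9 and 98.2 CPM in that order, so the glands had the highest median and not the highest mean. By edgeR, B1/P/Rbf tumors differed from glands by -2.40 on the log2 scale (SE 1.53, adjusted p = 0.232) and from P/Rbf tumors by -2.75 (SE 1.44, adjusted p = 0.364). B1/P and P/Rbf tumors differed from glands by 1.11 (SE 1.62, adjusted p = 0.626) and 0.34 (SE 1.57, adjusted p = 0.881). None of these passed, though the first passed in a fit of only its own groups (adjusted p = 0.0353). Fitted differences from B1/P tumors were -3.51 (SE 1.49) in B1/P/Rbf and -0.77 (SE 1.35) in P/Rbf tumors, and -2.78 and -0.03 without tumor 225070. Tumor 255232, second for Csn3 among B1/P tumors, had the lowest Csn1s1 of that group.

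Whey acidic protein, Wap (chr11:6635482-6638637, minus strand), is a marker of late pregnancy and lactation in mice. It gave 16 counts (0.474 CPM) in B1/P tumor 225070 and 0 counts in the other 17 samples, and it was not kept for testing. Tumor 225070 thus held the highest level among the 15 tumors of 5 of the 8 genes, Csn1s1, Csn1s2a, Csn2, Csn3 and Wap. Per kilobase of transcript, that tumor held 1048 CPM of Csn1s1, 334 of Csn3, 57.8 of Csn2, 20.7 of Csn1s2a and 0.86 of Wap.

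Lalba encodes alpha-lactalbumin, the partner of beta-1,4-galactosyltransferase in lactose synthesis (chr15:98480400-98482721, minus strand). Glands held 18, 85 and 31 counts, or 0.703, 2.78 and 1.05 CPM. At most 3 counts were found in B1/P/Rbf tumors, while P/Rbf tumors held 2, 0, 1, 5 and 3 and B1/P tumors 1, 2, 5, 10 and 3. All 15 tumors lay below the lowest gland, tumor 225070 included.

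Lalba was called lower than in glands (1.51 ± 1.11 CPM, n = 3) in each tumor group. It passed the filter on low counts through the 3 glands alone, as did Glycam1, so a kept gene of this kind could differ only in that direction. B1/P/Rbf tumors were at least 17.9-fold lower (adjusted p = 0.000628, edgeR). P/Rbf tumors were lower by 4.50 on the log2 scale (log2 difference -4.50, SE 0.93, adjusted p = 0.00113) and B1/P tumors by 3.59 (log2 difference -3.59, SE 0.89, adjusted p = 0.00499). The last fell to -2.77 (adjusted p = 0.0507) without gland 330155, the highest of 3. That gland, at 2.78 CPM against 0.703 and 1.05 CPM, also carried much of the mean behind the bound. Over the alternatives the log2 difference was as small as -4.13 in B1/P/Rbf and -3.36 in P/Rbf tumors. No tumor held more than 10 counts.

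Glycam1 encodes a mucin-like glycoprotein that is found in milk and, in lymph nodes, on high endothelial venules, where it carries ligands of L-selectin (chr15:103562759-103565081, minus strand). Glands held 9056, 17580 and 10255 counts, or 354, 575 and 347 CPM. B1/P/Rbf tumors held 4, 10, 0, 1 and 1 counts, B1/P tumors 0, 3, 7, 0 and 0 and P/Rbf tumors 1, 0, 0, 1 and 0. It was the highest of the 8 genes in glands per length, at 677 ± 207 CPM per kilobase (SD, n = 3), ahead of Csn3 at 59.6 ± 12.9 and Lalba at 1.96 ± 1.44, and close to absent from all tumors.

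Against the glands (425 ± 130 CPM, n = 3) the log2 difference of Glycam1 was -12.16 in B1/P/Rbf tumors (SE 0.86, adjusted p = 5.72e-08) and -12.77 in B1/P tumors (SE 0.89, adjusted p = 8.79e-08), and P/Rbf tumors were at least 4858-fold lower (adjusted p = 3.67e-08, edgeR). The glands also held lymph node transcripts. The sum of 12 lymph node and B cell genes was 520 to 728 CPM in glands and 5.12 to 58.2, 2.99 to 28 and 3.01 to 16.0 CPM in B1/P/Rbf, then B1/P and then P/Rbf tumors, and 11 of the 12 genes were called lower than in glands in each tumor group (20%, 16.9% and 20.3% of all genes were). The exception was Madcam1, an addressin of venules, at 1.91 CPM in glands. It averaged 10.5 ± 20.4 CPM in B1/P/Rbf tumors, where tumor 210906 held 46.8 CPM and the median was 0.822 CPM. Means were 0.176 CPM in B1/P and 0.213 CPM in P/Rbf tumors.

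Chst4, which sulfates the L-selectin ligands of high endothelial venules, had 68, 109 and 72 counts in the glands and at most 1 in any tumor, and was at least 34.2-fold, 32.6-fold and 33.0-fold lower in B1/P/Rbf, then B1/P and then P/Rbf tumors. Cr2, a receptor of B cells and follicular dendritic cells, was at 40.3 CPM in glands and 0.175, 0.016 and 0.0344 CPM in the tumor groups. Fcer2a, a B cell receptor for IgE, was at 48.7 CPM against 0.116, 0.0899 and 0.0735 CPM. Glycam1 and these genes moved together between glands and tumors, and their part in the result was not tested.

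**Figure D2:**
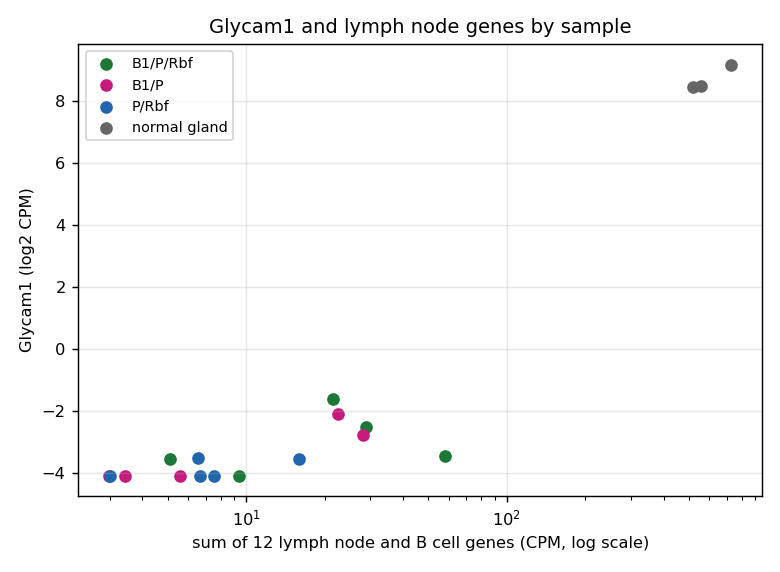
Glycam1 (log2 CPM, vertical) against the summed CPM of 12 lymph node and B cell genes (horizontal, log scale), with 1 point for each sample, coloured by group. The 3 glands lie at the upper right, with sums of 520 to 728 CPM, and all 15 tumors lie at sums of 58.2 CPM or less.

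Counted over the group, 6 of the 8 genes passed the filter on low counts (Csn1s2b and Wap did not). Csn1s1 and Csn2 did so through B1/P tumors alone and Lalba and Glycam1 through glands alone, so counts over the 6 are a description of these samples and no support for a direction. When both T121 groups were compared, none was called by edgeR, limma-voom or DESeq2, where edgeR called 0.281% of all genes (0.219% higher in B1/P/Rbf tumors and 0.0625% lower). At an unadjusted p under 0.05 by edgeR there was 1, Glycam1, with at most 10 counts in any tumor. Csn1s1, at 2 counts in all in each of these groups, and Csn2, at 7 and 5, were too low there for a difference to be detectable, and the low Csn1s1 of both groups had a part in its choice. Against glands, B1/P/Rbf tumors had 2 genes called lower (20% of all genes were) and P/Rbf tumors 2 (20.3%), Lalba and Glycam1 in both. B1/P tumors had the same 2 called lower (16.9% of all genes) and 2 called higher, Csn1s1 and Csn2 (16.8%), of which Csn1s1 was chosen with these B1/P values in view.

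The median log2 difference over the 6 genes from glands was 4.14 in B1/P tumors, -3.11 in B1/P/Rbf tumors and -2.90 in P/Rbf tumors, beside 0.12, 0.05 and 0.05 over all genes tested. Tumor 225070 carried the first of these, which was 0.50 without it, and 1.11 with Csn1s1 left out instead. From B1/P tumors the median was -4.05 in B1/P/Rbf and -2.28 in P/Rbf tumors, beside -0.06 and -0.05, and it was -2.16 and -1.44 without tumor 225070. With that tumor and Csn1s1 both left out it was -1.55 and -1.08. Fitted differences from B1/P tumors were negative for 5 of 6 genes in B1/P/Rbf (Glycam1 being the other, at 0.61) and for 6 of 6 in P/Rbf tumors, and for 4 and 5 without tumor 225070. These are counts of signs and not of calls, and with medians over all genes of -0.06 and -0.05 a negative sign was common among all genes. In these contrasts, which share the B1/P tumors, 9.29% and 10.8% of all genes were called lower and 7.36% and 8.43% higher. Those shares are of calls and give no measure for the signs.

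**Figure D3:**
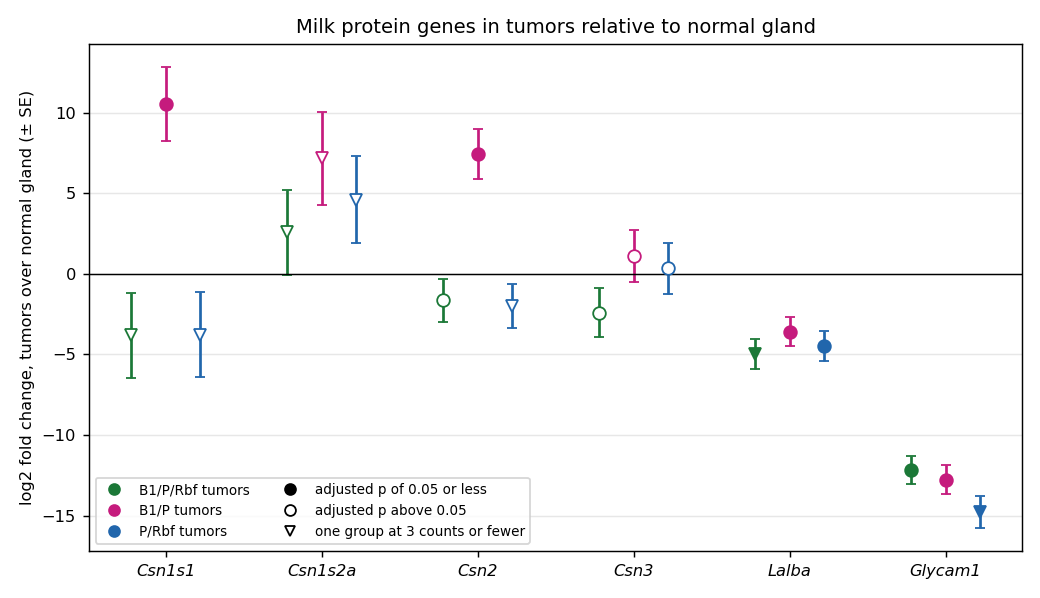
Log2 fold change from normal gland (vertical, ± SE from the edgeR fit) of the 6 genes kept, by tumor group. Filled symbols mark an adjusted p of 0.05 or less, and triangles mark comparisons with a group at 3 counts or fewer, whose fitted size depends on the prior count. Csn1s1 and Csn2 are above 0 in B1/P tumors only, at 10.54 and 7.45, and Lalba and Glycam1 are below 0 in all 3 groups.

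Ranked by the mean log2 CPM of the 6 genes, B1/P tumors took the first 5 places among 15 tumors, a pattern that came with Csn1s1. Over the other 5 genes, B1/P tumors 225070, 255232 and 248662 came first at 2.75, 0.32 and -0.13, P/Rbf tumor 287842 (-0.49) lay above B1/P tumor 225068 (-0.59), and P/Rbf tumor 290845 (-0.77) above B1/P tumor 246361 (-1.13). Summed CPM gave another order. P/Rbf tumors 290845 and 287842, at 412 and 172 CPM, exceeded B1/P tumors 248662, 225068 and 246361, at 124, 52.6 and 10.2 CPM. Glands, with Glycam1 and Csn3, held 428 to 692 CPM.

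Of 49 other genes annotated within 500 kb of the casein cluster, 3 passed the filter on low counts. Odam, a secreted protein of tooth-forming epithelium encoded between Csn1s2b and Csn3 (chr5:87885029-87894174), averaged 2.03 CPM in B1/P/Rbf, 0.922 in B1/P and 9.78 in P/Rbf tumors, had 0 counts in glands, and was called higher than in glands in B1/P/Rbf and P/Rbf tumors (adjusted p = 0.039 and 0.0152, edgeR). Its differences from B1/P tumors did not pass (adjusted p = 0.643 and 0.148), and the B1/P mean came mostly from tumor 225068, at 4.1 CPM. Amtn, also of tooth enamel epithelium (chr5:88376108-88385916), averaged 25.4 ± 46.3, 0.356 ± 0.743 and 79.9 ± 138 CPM in the tumor groups and 0.0457 CPM in glands, and was higher than in B1/P tumors by 6.14 on the log2 scale in B1/P/Rbf (SE 2.03, adjusted p = 0.0467) and by 7.80 in P/Rbf tumors (SE 2.17, adjusted p = 0.0193). Sult1e1, the estrogen sulfotransferase on the other side of Csn1s1 (chr5:87575969-87591594), averaged 0.133, 0.613 and 0.0241 CPM in the tumor groups and was at 0 in glands, below B1/P tumors by the test (adjusted p = 0.043). These calls lay near the threshold, and each was lost under some alternatives, with adjusted p up to 0.156 and 0.0772 for Amtn against B1/P tumors, 0.104 and 0.0712 for Odam against glands and 0.118 for Sult1e1. Amtn was not called in 13 of 25 settings in B1/P/Rbf against B1/P tumors, and in 2 of 25 in P/Rbf against B1/P tumors.

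**Figure D4:**
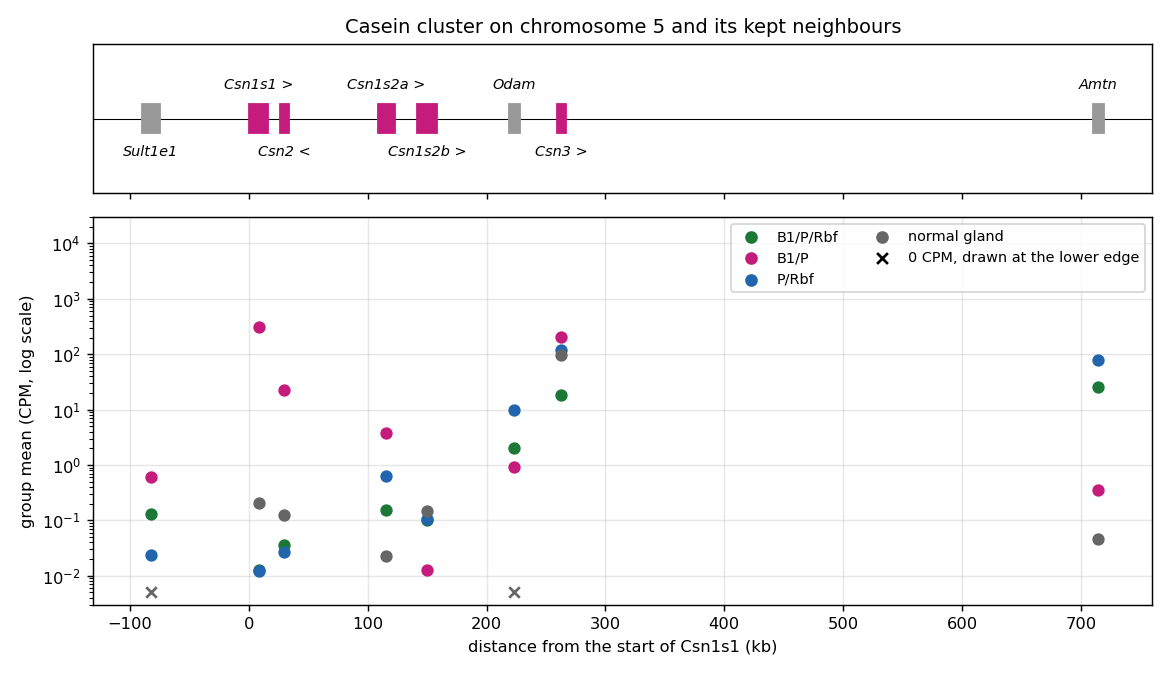
Genes of the casein cluster and the kept neighbours by distance from the start of Csn1s1 in kb (upper panel, caseins in magenta with their strand as an arrow, other genes in grey), and group means in CPM on a log scale at each gene (lower panel, crosses for 0). B1/P tumors are highest at Csn1s1, Csn2, Csn1s2a, Csn3 and Sult1e1, and lowest of the tumor groups at Odam and Amtn.

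Of the regulators of milk protein genes, 15 were listed and 14 passed the filter. Prl, the gene of prolactin itself, which is made in the pituitary, had 0 counts in all 18 samples. Prlr, its receptor, was at 14.5, 12.8, 15.3, 42.5 and 225 CPM in B1/P tumors 225068, 225070, 246361, 255232 and 248662. Means were 267 ± 169 CPM in B1/P/Rbf tumors, 192 ± 116 in P/Rbf tumors and 674 ± 123 in glands. Tumor 225070, with the most casein, had the lowest Prlr of all 15 tumors. Other genes of the pathway were not lowest there. Counted from the lowest of the 15, its Stat5a ranked 6, its Stat5b 9 and its Jak2 14.

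Prlr was lower in B1/P tumors than in glands (log2 difference -3.44, SE 0.91, adjusted p = 0.00774, edgeR). Over the alternatives this difference ranged from -4.98 to -3.11 and passed in each. Stat5a and Stat5b, the transcription factors downstream, were lowest on average in the group with the most casein. Within that group the order was not the same, since tumor 225070 held its highest Stat5a and Stat5b, at 48.0 and 79.9 CPM. Stat5a averaged 30.5 ± 15.1 CPM in B1/P, 252 ± 157 in B1/P/Rbf and 118 ± 109 in P/Rbf tumors and 152 ± 80.9 CPM in glands. It was higher in B1/P/Rbf tumors than in B1/P tumors by 3.05 on the log2 scale (SE 0.63, adjusted p = 0.00398), with no overlap, and in P/Rbf tumors by 1.95 (SE 0.60, adjusted p = 0.0317), the latter not past the threshold without P/Rbf tumor 290860 (1.22, adjusted p = 0.119). Stat5b averaged 50.6, 141 and 76.9 CPM in B1/P, B1/P/Rbf and P/Rbf tumors and 188 CPM in glands, and the log2 difference of B1/P tumors from glands was -1.89 (SE 0.35, adjusted p = 0.000522).

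Cish, an inhibitor of the pathway and itself a target of STAT5, averaged 12.0 ± 5.53 CPM in B1/P, 24.2 ± 7.28 in B1/P/Rbf and 45.6 ± 42.4 in P/Rbf tumors and 65.4 ± 22.5 CPM in glands. Among B1/P tumors it was highest in tumor 225070, at 20.9 CPM, which ranked 10 from the lowest of 15 tumors. The log2 difference of B1/P tumors from glands was -2.44 (SE 0.60, adjusted p = 0.00468). Elf5, a factor of alveolar and luminal progenitor cells, ran the other way. It was at 79.7, 56.3, 11.8, 49.2 and 51.2 CPM in B1/P tumors and averaged 5.72 ± 9.13 CPM in B1/P/Rbf tumors, 9.71 ± 15.8 in P/Rbf tumors and 21.3 ± 5.47 in glands. Its differences from B1/P tumors, -3.12 (SE 1.35, adjusted p = 0.124) and -2.35 (SE 1.31, adjusted p = 0.211), did not pass by edgeR, nor did that of B1/P tumors from glands, 1.22 (SE 1.51, adjusted p = 0.56). The first passed in DESeq2 (adjusted p = 0.0315), the first and second in limma-voom (0.0151 and 0.0217), and the first without B1/P/Rbf tumor 209490 (0.0392).

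Of the partners of STAT5, Cebpb, Nfib and Nr3c1 were higher in B1/P than in B1/P/Rbf tumors. Cebpb averaged 53.5 ± 7.32 CPM in B1/P, 23.9 ± 4.12 in B1/P/Rbf and 27.5 ± 18.0 in P/Rbf tumors, with log2 differences from B1/P of -1.16 (SE 0.33, adjusted p = 0.023) and -0.96 (SE 0.33, adjusted p = 0.0485). Over the alternatives the adjusted p ranged from 0.00579 to 0.0572 for the first and from 0.0048 to 0.142 for the second. Nfib averaged 344 ± 169 CPM in B1/P and 167 ± 28.8 CPM in B1/P/Rbf tumors (log2 difference -1.05, adjusted p = 0.0111, and 0.00101 to 0.0546 over the alternatives), 213 CPM in P/Rbf tumors and 156 CPM in glands. Nr3c1, the glucocorticoid receptor, was at 160 ± 21.7 CPM in glands and lower in each tumor group, with log2 differences of -1.61, -0.85 and -0.98 in B1/P/Rbf, then B1/P and then P/Rbf tumors (adjusted p = 0.000263, 0.0259 and 0.0109, and at most 0.0027, 0.166 and 0.0654 over the alternatives). Among tumors it averaged 88.9 CPM in B1/P, above all of the B1/P/Rbf tumors at a mean of 52.5 CPM (log2 difference -0.76, SE 0.25, adjusted p = 0.0442, and 0.016 to 0.104 over the alternatives). Erbb4, a receptor that acts on STAT5, averaged 2.7 CPM in glands and lay at least 32.0-fold below that in B1/P/Rbf tumors (adjusted p = 0.00134), which were also called lower than B1/P tumors, at 0.714 CPM (adjusted p = 0.0169, but 0.0681 in limma-voom). Jak2, Id2, Socs1, Socs2 and Socs3 were not called by edgeR in any of the 6 comparisons. Under alternatives some differences of Jak2, Id2, Socs1 and Socs3 passed, with adjusted p down to 0.0111 for Jak2 in B1/P/Rbf against B1/P tumors, without tumor 225070, and 0.0121 for Id2 in B1/P tumors against glands, in a fit of only those groups.

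**Figure D5:**
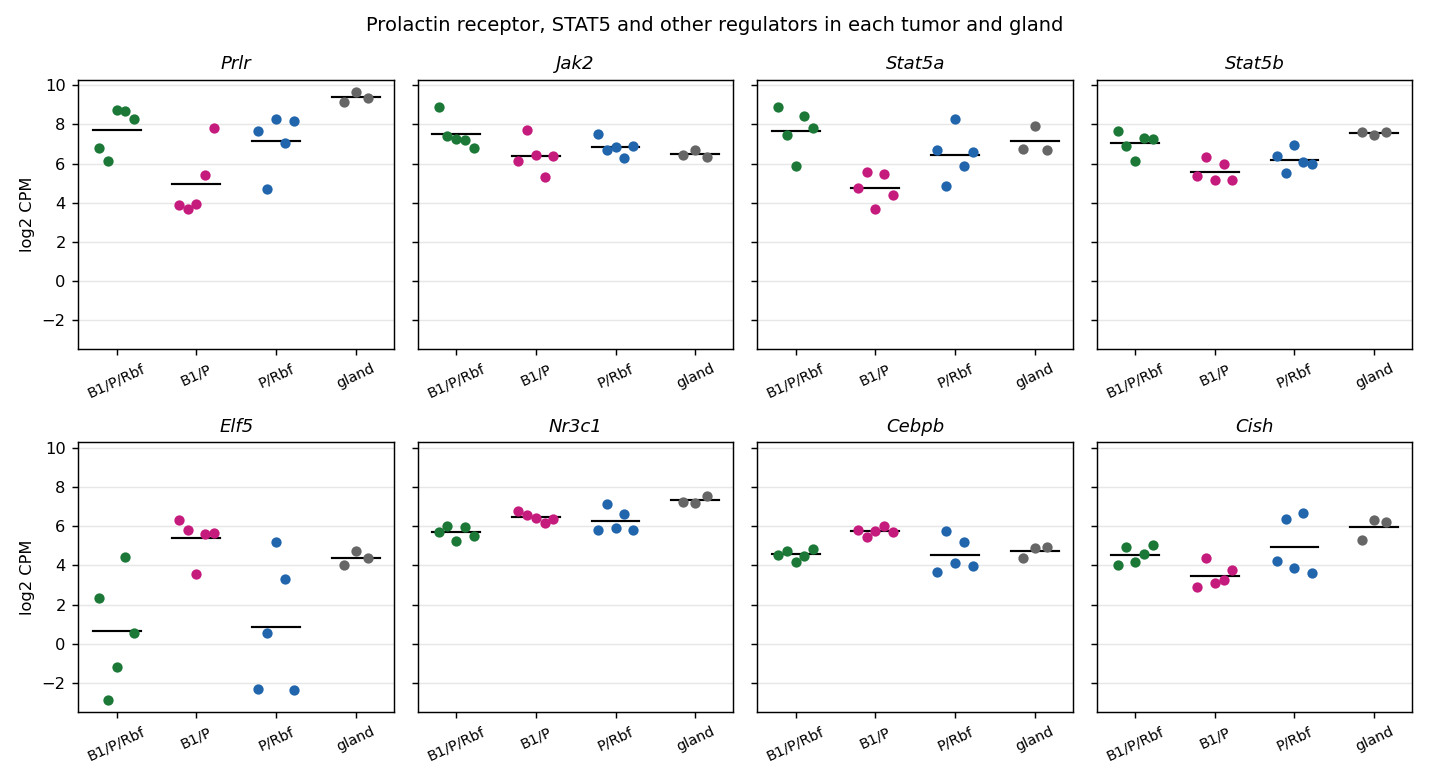
Prlr, Jak2, Stat5a, Stat5b, Elf5, Nr3c1, Cebpb and Cish in each tumor and gland, as log2 CPM with a prior count of 2. Points are samples and black lines are group means of the log2 values. B1/P tumors have the lowest means of Prlr, Stat5a, Stat5b and Cish and the highest means of Elf5 and Cebpb.

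Over the list, B1/P/Rbf tumors had 2 genes called higher and 4 called lower relative to B1/P tumors, where 16.7% of all genes were called, and 2 higher and 1 lower in P/Rbf tumors (19.2%). Against glands, B1/P/Rbf tumors had 0 higher and 2 lower (37% of all genes), B1/P tumors 1 higher and 5 lower (33.8%) and P/Rbf tumors 0 higher and 3 lower (37.7%). Medians over the list were 0.08, 0.08, -0.66, -0.50 and -0.46 in that order, beside -0.06, -0.05, 0.05, 0.12 and 0.05 over all genes. When the T121 groups were compared, 1 of the 51 kept genes of this list and the lists of other milk proteins and of lactose and fat synthesis was called by edgeR, the fatty acid transporter Cd36, and 5 were by DESeq2, which called 5.29% of all genes there against 0.281% by edgeR. The edgeR call of Cd36 was lost when any single P/Rbf tumor or gland was left out (adjusted p of 0.0528 to 0.091). It was also lost in limma-voom (adjusted p = 0.217), in a fit of only those groups (adjusted p = 0.184) and without some of the other tumors.

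Other proteins of milk and of the milk fat globule made up a list of 18 genes, all kept. Wfdc18, a relative of Wap, was like Csn1s1 in that all 5 B1/P tumors stood above all other samples. The likeness was one of groups, since Csn1s1 ranged from 2.78 to 1479 CPM in B1/P tumors and averaged 0.203 CPM in glands. Wfdc18 lay between 103 and 514 CPM in B1/P tumors (271 ± 180 CPM, n = 5), and averaged 3.66 ± 4.35 CPM in B1/P/Rbf tumors, 2.87 ± 3.41 in P/Rbf tumors and 47.4 ± 8.94 in glands. Tumors with T121 did not overlap B1/P tumors, with log2 differences of -6.21 (SE 1.2, adjusted p = 0.00249) in B1/P/Rbf and -6.56 (SE 1.2, adjusted p = 0.00206) in P/Rbf tumors by edgeR. They were also called lower than the glands (-3.70, adjusted p = 0.015, and -4.05, adjusted p = 0.00938), while the rise in B1/P tumors, 2.52, did not pass (adjusted p = 0.119).

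Muc15, a mucin of the globule membrane, and Btn1a1, the butyrophilin that globule secretion needs, were also lower in tumors with T121 than in B1/P tumors. Muc15 averaged 10.2 CPM in B1/P tumors against 0.236 in B1/P/Rbf (log2 difference -5.43, SE 1.05, adjusted p = 0.00267) and 0.515 in P/Rbf tumors (-4.29, SE 0.98, adjusted p = 0.00716). Btn1a1 averaged 4.27 CPM in B1/P tumors against 0.123 and 0.147 CPM (-5.05 and -4.86, adjusted p = 0.0026 and 0.0032), and 22.5 CPM in glands. Unlike Csn1s1 and Csn2, Btn1a1 was lower in B1/P tumors than in glands (-2.40, SE 0.90, adjusted p = 0.0484), a call near the threshold whose adjusted p ranged from 0.0032 to 0.189 over the alternatives. Spp1 (osteopontin), present in milk and made by many other cells, averaged 600 CPM in B1/P, 92.9 in B1/P/Rbf and 126 in P/Rbf tumors and 5.47 CPM in glands, and was called higher than in glands in each. Tumor 225070 held 2109 CPM of it and the other 4 B1/P tumors averaged 223 CPM. The groups with T121 were called lower than B1/P tumors (log2 difference -2.69 and -2.25, adjusted p = 0.0168 and 0.0331), which did not hold without that tumor (-1.27 and -0.82, adjusted p = 0.0734 and 0.227).

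Genes of the same list also moved the other way. Slc34a2, a phosphate transporter of secretory epithelia, averaged 272 ± 175 CPM in B1/P/Rbf, 21.7 ± 28.3 in P/Rbf and 5.33 ± 3.11 in B1/P tumors, and was higher in B1/P/Rbf tumors than in B1/P tumors by 5.67 on the log2 scale (SE 1.00, adjusted p = 0.00157). Muc1, the apical mucin of ductal epithelium, averaged 125 CPM in B1/P/Rbf tumors, against 9.62 in those of B1/P (3.70, SE 0.91, adjusted p = 0.0112). In all, 3 of the 18 genes were higher and 5 lower in each group with T121 than in B1/P tumors, beside 7.36% and 9.29% of all genes for B1/P/Rbf and 8.43% and 10.8% for P/Rbf tumors. The medians were -0.64 and 0.44. Against glands, B1/P/Rbf tumors had 3 higher and 5 lower (17.1% and 20% of all genes), B1/P tumors 2 and 2 (16.8% and 16.9%), and P/Rbf tumors 3 and 4 (17.4% and 20.3%), with medians of -0.36, -0.29 and 0.19.

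Markers of the epithelial cell types that could carry milk genes were also summed, and the sums of luminal progenitor genes overlapped between all 4 groups. Luminal progenitor genes, 7 including Elf5, summed to 524, 1341, 385, 395 and 953 CPM in B1/P tumors 225068, 225070, 246361, 255232 and 248662, and to 174 to 1457 CPM in B1/P/Rbf, 246 to 1067 CPM in P/Rbf tumors and 404 to 547 CPM in glands. Of these genes 1 was called higher than in glands in each tumor group (16.8% to 17.4% of all genes were), and 1 was lower in P/Rbf than in B1/P tumors (10.8%). The highest sum, 1457 CPM, was that of B1/P/Rbf tumor 208863, which had 0 counts of Csn1s1. Ltf, a gene of this list that was also counted with the other milk proteins, reached 541 CPM among B1/P/Rbf tumors.

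Hormone-sensing luminal genes, 6 including Prlr, summed to 64.5 to 497 CPM in B1/P, 1269 to 1749 in B1/P/Rbf and 296 to 1467 in P/Rbf tumors and 1062 to 1561 CPM in glands. Of the 6, 4 were called higher in B1/P/Rbf (7.36% of all genes were) and 3 in P/Rbf (8.43%) than in B1/P tumors, and 3 were lower in B1/P tumors than in glands (16.9%). Myoepithelial genes (8) summed to 1524, 402, 2246, 933 and 2085 CPM in the B1/P tumors in the order above, 65.0 to 352 CPM in B1/P/Rbf and 87.1 to 1462 CPM in P/Rbf tumors and 335 to 481 CPM in glands. Of these, 2 were called lower in each group with T121 than in B1/P tumors (9.29% of all genes in B1/P/Rbf and 10.8% in P/Rbf tumors). The 8 luminal epithelial genes summed to 740 to 3442 CPM in B1/P, 3177 to 7175 in B1/P/Rbf and 6721 to 13307 CPM in P/Rbf tumors, with 2 and 5 called higher in the groups with T121 than in B1/P tumors, beside the 7.36% and 8.43% of all genes. Tumor 225070 thus had the fewest myoepithelial transcripts of its group and the most luminal progenitor transcripts, though 545 of the 1341 CPM were Cd14, which macrophages also express. The same tumor held the highest sums of all 18 samples for 8 fibroblast genes (12767 CPM, against 2545 to 5997 CPM in the other B1/P tumors) and for 8 macrophage genes (1461 CPM against 341 to 1086 CPM). The part of these cell types in the casein levels was not tested.

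Across the 15 tumors, the 5 genes whose log2 CPM ranked most like the mean of the 6 kept milk protein genes were Snhg6, Zfas1, Dcun1d4, Aldh18a1 and Rpl3, with Spearman's rho of 0.95, 0.929, 0.925, 0.921 and 0.914 among 19180 genes. With Csn1s1 left out of the mean, rho for these genes was 0.936, 0.882, 0.954, 0.889 and 0.846. These values are descriptive, since the tumors share genotype groups and B1/P tumors occupy most of the upper ranks. Snhg6 and Zfas1, host genes of small nucleolar RNAs, averaged 35.8 ± 12.3 and 141 ± 87.3 CPM in B1/P tumors, and 13.4 and 36 CPM in B1/P/Rbf tumors. They averaged 16.6 and 42.0 CPM in P/Rbf tumors and 14.9 and 41.3 CPM in glands.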

How the data were processed

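The authors made stranded mRNA libraries, sequenced them in pairs of reads as 1 pool, trimmed the reads with Cutadapt 1.18 and counted genes with RSEM 1.3.0, per the labels and the methods. What was deposited are expected counts of RSEM without normalization, of which 5.61% are not whole, since reads that fit more than 1 gene are shared out. A human reference is named in the methods, whereas all 55450 identifiers are those of mouse GENCODE release M21 (GRCm38). Whether the counting used strand is not given in the sources used here.

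After rounding, counts were fitted with edgeR 4.0.16 in R 4.3.3. Genes were kept by filterByExpr with a minimum count of 10, which left 19186, and 1 quasi-likelihood fit of all 18 samples in 4 groups after TMM scaling gave 6 comparisons, with genes called at 0.05 or less after Benjamini-Hochberg adjustment over all genes kept. Log2 CPM values used a prior count of 2. A group with at most 3 counts in every sample was taken as at the floor, which was set against the mean of the other group to give a bound. Total counts set the precision of low values, and replicates differed by more than counting noise, with chi-square per degree of freedom of 25.0 to 516.4 over 33 replicate pairs. Levels of single milk protein genes were set against each other per kilobase of the longest principal transcript. Sums over lists are in CPM and weigh long, abundant transcripts most.

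The 8 members and all gene lists were chosen with earlier results of these data known. Named were all members, every gene of the prolactin and STAT5 list, the kept genes within 500 kb of the casein cluster, the 5 genes most like the members across tumors, and of each list and comparison up to 2 genes with the largest rise and 2 with the largest fall of those called that averaged 5 CPM or more over groups that did not overlap. Genes outside the rule, such as Btn1a1 between tumor groups, Madcam1, Chst4, Cr2 and Fcer2a, were chosen after their values were seen. Lists were other milk and milk fat globule proteins, lactose and milk fat synthesis, prolactin and STAT5 control, and markers of luminal epithelium, luminal progenitors, hormone-sensing luminal cells, myoepithelium, adipocytes, fibroblasts, macrophages, lymph node and B cells, and plasma cells.

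Alternatives were DESeq2 1.42.0, limma-voom (limma 3.58.1) with quantile normalization, library sizes without TMM, scaling without the members, no filter, a filter at log2 CPM 6 in 6 samples, a fit of only the groups compared, and leaving out each sample in turn. Tables and figures were made in Python 3.11.15 with pandas 2.3.3, numpy 2.4.6 and matplotlib 3.10.9.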

Additional observations from a re-analysis of the deposited data

Results flagged for a closer look

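In 57 groups of 5 tumors, the highest and lowest values of the milk protein genes and of the prolactin and STAT5 genes were set against the others of their group, and 14 stood apart (a gap to the nearest tumor of over 0.71 of the group's range). For normally distributed values chance sets about 1 in 20 groups apart. CPM values are skewed, and the rate that holds for them was not measured. Of the 14, 4 lay in B1/P tumor 225070. Csn1s1 was at 1479 CPM there, with a gap of 0.95 of the range, Csn1s2a at 19.0 CPM (0.997), Wap at 0.474 CPM (1.0) and Jak2 at 207 CPM (0.721).

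Another 2 lay in B1/P/Rbf tumor 209490, with Csn2 at 0.152 CPM, which is 6 counts, and Elf5 at 21.7 CPM. P/Rbf tumor 290860 also had 2, Stat5a at 306 CPM and Elf5 at 37.1 CPM. Csn3 was at 52.4 CPM in B1/P/Rbf tumor 208863 and Prlr at 225 CPM in B1/P tumor 248662. Jak2 was at 479 CPM in B1/P/Rbf tumor 208855. In P/Rbf tumors, Erbb4 was at 0.395 CPM in 287822, Socs1 at 10.6 CPM in 287842 and Socs3 at 209 CPM in 287845. All 14 values were the highest of their group.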

How the results depend on the processing

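No direction that had been called was reversed under any alternative. Over the alternatives other than leaving out samples, 67 of 84 counts of genes stayed within 1.5 times their value and 1026 of 1088 tested differences of single genes kept their direction and their side of the threshold. Of 68 differences of milk protein genes from B1/P tumors, given without a test, 62 moved by less than their spread. Under a filter at log2 CPM 6 in 6 samples Csn3 alone of the milk protein genes was tested, so the genes called against glands fell to 0, 0 and 0 in B1/P/Rbf, then B1/P and then P/Rbf tumors and the negative differences from B1/P tumors to 1 and 1. The called lactation genes of the other lists came to 6 and 4 against B1/P tumors, 0 between the T121 groups and 14, 15 and 12 against glands, of 26 tested, where 19.5%, 19.1%, 0.0659%, 38.8%, 35.2% and 36.7% of all genes were called. In fits of only the groups compared, which kept 3 milk protein genes, negative differences from B1/P tumors were 3 and 3, and called lactation genes 4 in P/Rbf against B1/P tumors (9.3% of all genes) and 0 between the T121 groups (0.00615%). DESeq2 called 5 of them between the T121 groups (5.29%) and limma-voom 7 in P/Rbf against B1/P tumors (16.5%).

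Leaving out each sample in turn, negative differences from B1/P tumors were 4 to 6 in B1/P/Rbf and 5 to 6 in P/Rbf tumors. Milk protein genes called were 0 to 0 between the T121 groups and 2 to 3, 3 to 5 and 2 to 3 against glands in B1/P/Rbf, then B1/P and then P/Rbf tumors. Called lactation genes were 10 to 15 and 9 to 12 against B1/P tumors, 0 to 2 between the T121 groups and 22 to 27, 18 to 26 and 21 to 26 against glands, where the main counts were 14, 12, 1, 25, 23 and 23. Over all genes 12.1% to 18.1%, 14.4% to 20.5%, 0.0522% to 0.686%, 25% to 38.3%, 21.7% to 34.9% and 25.9% to 39.1% were called in the same order. Without TMM scaling the median of all genes against glands moved to 0.42, 0.47 and 0.33, and in B1/P tumors 5126 genes were called higher and 2441 lower, beside 3232 and 3249. No paired analysis was possible because the labels give the groups no shared replicate numbers. Depth limits Csn1s2b, Wap, Lalba in tumors and Glycam1 in tumors, all at or under 16 counts there.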

Other observations

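Genes of lactose and milk fat synthesis differed between tumors and glands rather than between tumor groups. Of 20 genes 19 were kept, and 14 were called lower and 1 higher than in glands in B1/P/Rbf tumors, 12 and 1 in B1/P tumors and 12 and 1 in P/Rbf tumors, where 20%, 16.9% and 20.3% of all genes were called lower and 17.1%, 16.8% and 17.4% higher. The medians were -3.21, -3.12 and -2.22. Against B1/P tumors, 0 were called in B1/P/Rbf (median -0.18) and 1 in P/Rbf tumors (median 0.02), Cd36, a transporter of fatty acids, with a log2 difference of -1.87 (SE 0.52, adjusted p = 0.0191 by edgeR, but 0.127 in limma-voom). Thrsp, a regulator of lipogenesis, was at 1087 CPM in glands and 0.347, 0.817 and 0.912 CPM in B1/P/Rbf, then B1/P and then P/Rbf tumors, and Fabp3, a carrier of fatty acids, at 149 CPM against 0.124, 0.308 and 0.0901 CPM. The gene that rose was Slc2a1, the glucose transporter GLUT1, at 301, 259 and 326 CPM in the tumor groups and 38 CPM in glands (log2 differences 2.98, 2.77 and 3.10, adjusted p = 0.00116, 0.00223 and 0.000871). Adipocytes also express genes of this list. The 8 adipocyte markers summed to 20376 to 26104 CPM in glands and at most 237 CPM in any tumor, with 8 of 8 called lower in each group, and their part in the result was not tested. Cidea, counted with the milk fat globule and also an adipocyte gene, was at 78.4 CPM in glands and 0.598, 1.52 and 0.558 CPM in tumors.

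Other marker lists had the following values. Fibroblast genes (8) summed to means of 1916, 5437 and 2222 CPM in B1/P/Rbf, then B1/P and then P/Rbf tumors and 2201 CPM in glands, with 3 called higher in B1/P tumors than in glands (16.8% of all genes) and 1 and 2 lower in B1/P/Rbf (20%) and P/Rbf tumors (20.3%). Tumor 225070 alone was at 12767 CPM. Macrophage genes (8) summed to 495, 757 and 379 CPM and 256 CPM in glands, with 3, 7 and 2 called higher than in glands in the same order (17.1%, 16.8% and 17.4% of all genes). Plasma cell genes (6, of which 5 were kept) summed to 1134, 553 and 1643 CPM and 365 CPM in glands, a sum made up mostly of Sdc1 (845, 382 and 1070 CPM against 66.9 CPM) and Xbp1, which epithelial cells also express and which were the 2 called higher in P/Rbf than in B1/P tumors (8.43% of all genes). Mzb1, a defining gene of plasma cells, was at 0.464, 0.256 and 0.202 CPM against 9.33 CPM in glands and called lower in each group. Jchain, at 4.05, 1.89 and 3.25 CPM against 15.4 CPM, was not called.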
